A study of Homo sapiens with 4 samples.

Results

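The genes described here are 10 that are induced by the extracellular signal-regulated kinase (ERK) pathway, most of which act back on it: the MAP kinase phosphatases DUSP1, DUSP4, DUSP5 and DUSP6, the Sprouty genes SPRY2 and SPRY4, the Sprouty-related genes SPRED1 and SPRED2, and the PEA3 transcription factors ETV4 and ETV5. They were chosen by name and not by a rule on their values, but with earlier results of these data known. All 10 were found among the 60605 genes of the files, and all 10 were among the 22185 genes that were tested. RNA was sequenced from NIH-OVCAR3, an established cell line from the ascites of a high-grade serous ovarian carcinoma. Cells of both groups were grown with 20% fetal bovine serum, exposed for 16 h to nocodazole at 100 ng/mL, which keeps microtubules from forming, washed, and given fresh medium for 3 h. One group of 2 libraries then received DMSO, the vehicle, and the other group of 2 libraries received 1.7 µM etoposide, an inhibitor of topoisomerase II that leaves DNA breaks, for 24 h. The title of the study concerns lamin A and the response to DNA damage.

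In the ERK cascade, growth factor receptors load RAS with GTP, and RAF, MEK and ERK are activated in turn. ERK then switches on genes whose products shut the cascade down: dual-specificity phosphatases remove the activating phosphates from MAP kinases, Sprouty proteins act between the receptor and RAF, and SPRED proteins bring the RAS inactivator neurofibromin to the membrane. Messages of this kind are mostly short-lived, so that their levels are often used as a readout of recent ERK activity. ETV4 and ETV5 are ETS family factors that pass the signal on to further genes, and the repressor CIC holds them down until ERK relieves it. The activity of ERK itself was not measured in these files.

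Values are FPKM, fragments scaled to the length of the transcript and to the mapped fragments of the library, summed over the transcripts of a gene. Etoposide was compared with DMSO on the scale log2(FPKM + 0.1) with limma over all tested genes, and adjusted p-values are by Benjamini and Hochberg over all of them. For 2 against 2 libraries, the smallest p that an exact permutation test (two-sided) can give is 0.333. The labels call the libraries of a group biological replicates without saying whether they came from separate cultures, so that p-values measure the spread between these libraries.

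The coverage in the files equals 39900000 to 56300000 read pairs of 200 bases a library over annotated transcripts. Between the DMSO libraries, the difference of log2 values over the tested genes followed transcript length (Spearman's rho 0.317) and GC content (−0.340), whereas rho was 0.017 and −0.016 between the etoposide libraries. These are correlations across genes, which are not independent replicates. Corrected values, from which a smooth trend on length and GC content was taken out, and values without DMSO replicate 1 are therefore given beside many of the differences. All 14 markers of serous carcinoma and epithelium, among them PAX8, WT1 and EPCAM, stood above an FPKM of 1 in every library. Their summed FPKM was 3610 and 3210 with DMSO and 2520 and 2600 with etoposide, led by the keratin KRT8. Summed FPKM of 8 fibroblast markers lay between 7.33 and 8.73, led by COL1A1 (mean 5.17). That of 5 endothelial markers lay between 4.60 and 5.78, led by KDR (mean 4.28). That of 7 leukocyte markers lay between 1.03 and 1.45, led by CD14 (mean 0.764), with the B cell marker MS4A1 at 0 in every library. COL1A1, COL1A2 and KDR stood above an FPKM of 1 in every library. The part of these markers in the results was not tested. In bulk RNA, fewer cells that make a transcript and less transcript in each cell cannot be told apart.

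After etoposide, DUSP6, ETV4, DUSP4 and SPRY2 had lower FPKM in both libraries than in either DMSO library, SPRED2 had higher FPKM in both, and the groups overlapped for DUSP1, DUSP5, SPRY4, SPRED1 and ETV5. The differences were modest: the largest log2 fold change among the 10 was −0.46, for DUSP6. None of the 10 passed limma's test at an adjusted p under 0.05, where 0% of all tested genes did, and none passed with limma's voom on estimated fragments. At an unadjusted p under 0.05, 2 of the 10 (20%), ETV4 and DUSP6, were lower, beside 4.85% of all genes tested. At the same threshold 0 of the 10 were higher, beside 7.06% of all genes. Both etoposide libraries lay below both DMSO libraries for 4 of the 10 (40%), beside 19.0% of all genes, and above both for 1 of the 10 (10%), beside 28.9% of all genes.

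**Figure D1:**
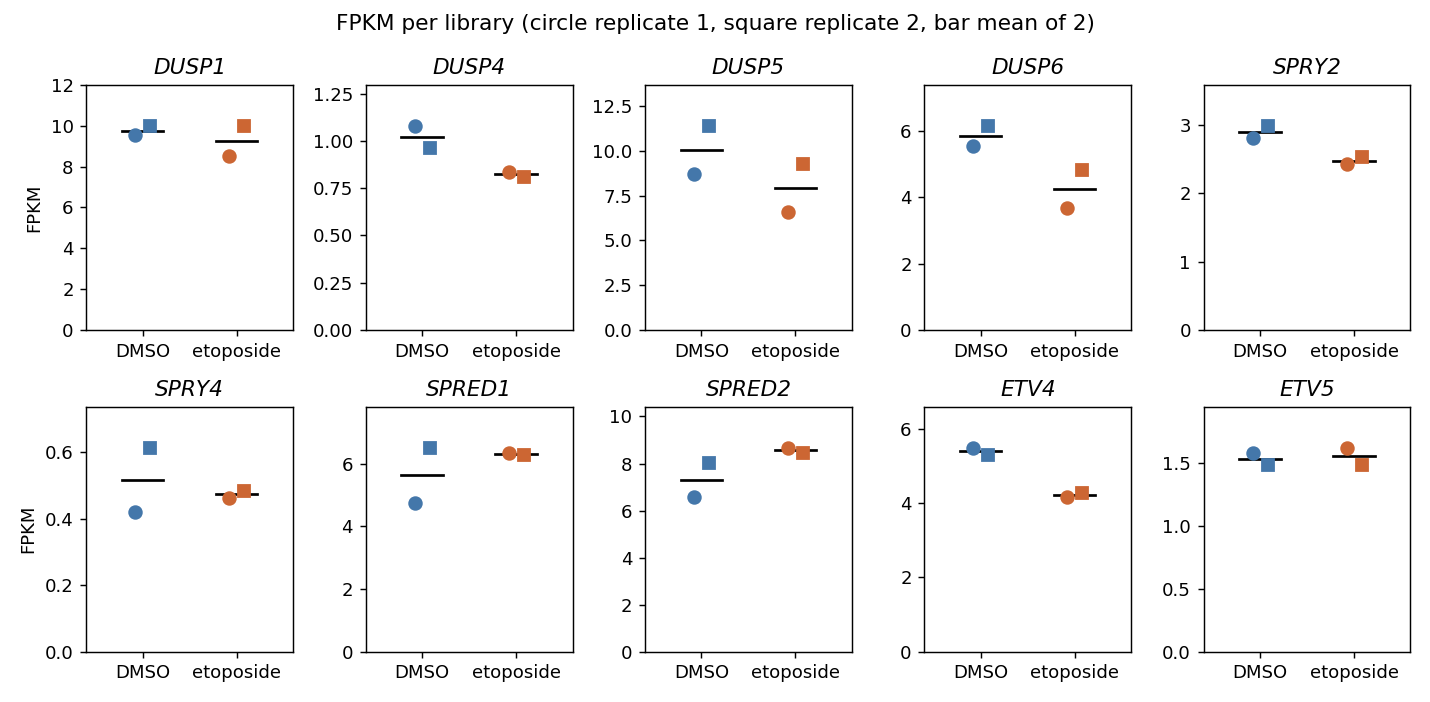
FPKM (vertical axis, from 0, with its own scale in each panel) of the 10 genes in the 2 DMSO and the 2 etoposide libraries; points are libraries and bars are means of 2. The points of the groups are apart for DUSP4, DUSP6, SPRY2, ETV4 and SPRED2, while those of DUSP1, DUSP5, SPRY4, SPRED1 and ETV5 overlap.

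The levels of the 10 genes spanned from an FPKM of 0.495 (SPRY4, mean of 4 libraries) to 9.52 (DUSP1). DUSP1 and DUSP5 (8.99) had the highest means and overlapped with each other over the libraries, as did DUSP5 with SPRED2 (7.94). The lowest library of SPRED2, at 6.58, lay just above the highest of SPRED1, at 6.51. SPRED1 (5.96), DUSP6 (5.05) and ETV4 (4.80) followed, each overlapping with the next. SPRY2 (2.69), ETV5 (1.54), DUSP4 (0.921) and SPRY4 came after them, each without overlap with the next. FPKM is scaled to transcript length, which allows these comparisons between genes. Among the 22185 tested genes, DUSP1 stood above 73.9% and SPRY4 above 29.1%. SPRY4 rested on only 101 to 183 estimated read pairs a library and DUSP4 on 220 to 381, whereas SPRED1 had 2006 to 2935.

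Of the phosphatases, DUSP6 showed the largest difference. DUSP6 (chromosome 12, 89347235 to 89352501, minus strand, GRCh38) encodes a cytoplasmic phosphatase that acts mainly on ERK and is among the most used readouts of the pathway. Its FPKM was 5.55 and 6.16 with DMSO and 3.67 and 4.84 with etoposide. Both etoposide libraries were the lower ones, with etoposide replicate 1 the lowest of the 4. Means were 5.86 ± 0.431 and 4.25 ± 0.824 (SD, n = 2 libraries each), a log2 fold change of −0.46 with a standard error of 0.16 and a 95% interval from −0.85 to −0.08 (limma, unadjusted p = 0.0248, adjusted p = 0.385). Replicates lay 0.15 apart for DMSO and 0.39 for etoposide on the log2 scale. Without etoposide replicate 1 the log2 fold change was −0.27, and without etoposide replicate 2 it was −0.66. The full-length transcript ENST00000279488 held 87.3% of the gene's FPKM, with 4.78 and 5.53 with DMSO and 3.45 and 3.89 with etoposide. An unnamed gene on the opposite strand, ENSG00000274021, shares 1105 of the 3859 exonic bases of DUSP6 (28.6%). It was listed at 0.537 and 0.590 with DMSO and 0.306 and 0.520 with etoposide. The authors' command for quantification held no strand option, so that reads in the shared bases may not have been told apart.

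DUSP5 and DUSP4 had lower means after etoposide as well. DUSP5 (chromosome 10, 110497907 to 110511533, plus strand) encodes a nuclear phosphatase that is specific to ERK and can hold it in the nucleus. Its FPKM was 8.68 and 11.4 with DMSO and 6.59 and 9.27 with etoposide. The groups overlapped, since etoposide replicate 2 lay above DMSO replicate 1, and the gap between replicates (0.39 for DMSO and 0.49 for etoposide on the log2 scale) was larger than the difference of −0.34 between groups (standard error 0.20, 95% interval −0.84 to 0.15, limma adjusted p = 0.499). Leaving out single libraries moved it from −0.59, without etoposide replicate 2, to −0.10, without etoposide replicate 1. Without DMSO replicate 1 it was −0.54 and without DMSO replicate 2 it was −0.15. DUSP4 (chromosome 8, 29333064 to 29350684, minus strand), another nuclear phosphatase of MAP kinases, had FPKM of 1.08 and 0.963 with DMSO and 0.838 and 0.807 with etoposide. The groups did not overlap, and the mean was 19.3% lower after etoposide (log2 fold change −0.28, standard error 0.16, limma adjusted p = 0.495). At this low level the value depended on the pseudocount, and with 1 it was −0.15.

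DUSP1 (chromosome 5, 172768096 to 172771195, minus strand), an immediate early gene whose product removes phosphates from p38, JNK and ERK in the nucleus, had the highest mean of the 10 over the 4 libraries, while DUSP5 was the higher one over the DMSO libraries alone. Its FPKM was 9.56 and 9.97 with DMSO and 8.537 and 10.02 with etoposide. The etoposide libraries held both the lowest and the highest value, and the log2 fold change of −0.08 had a 95% interval from −0.35 to 0.19. With 2 libraries in each group, this interval leaves room for a difference in either direction. DUSP5 and DUSP6, compared within each library, kept a ratio of 1.56 and 1.85 with DMSO and of 1.79 and 1.92 with etoposide, so that the groups overlapped in this ratio.

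The sequences before the start sites of DUSP1, DUSP6 and SPRY2 are shown to set a gene whose groups overlapped (DUSP1) beside genes that were lower in both etoposide libraries (DUSP6 and SPRY2). They are from RefSeq (GRCh38.p14), on the gene's strand from 250 bases before the start site to the base before it, and each ends where the leading transcript of the gene in the files starts. Capitals mark matches on either strand to the core of the cAMP response element and to a TATA box, both spelled out after the sequences. The window of DUSP6 held neither and has no capitals. That of SPRED1, whose groups overlapped like those of DUSP1, is not shown and held neither as well. Whether these letters bear on the differences between groups was not tested. The window of DUSP1 is chr5:172771196-172771445, that of DUSP6 chr12:89352502-89352751 and that of SPRY2 chr13:80341127-80341376, all on the minus strand.
DUSP1: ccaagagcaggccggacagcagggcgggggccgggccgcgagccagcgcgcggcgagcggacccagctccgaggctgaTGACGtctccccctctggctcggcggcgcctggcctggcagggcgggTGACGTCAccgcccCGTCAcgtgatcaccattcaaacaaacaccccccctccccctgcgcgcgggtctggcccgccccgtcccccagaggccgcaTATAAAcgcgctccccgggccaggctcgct
DUSP6: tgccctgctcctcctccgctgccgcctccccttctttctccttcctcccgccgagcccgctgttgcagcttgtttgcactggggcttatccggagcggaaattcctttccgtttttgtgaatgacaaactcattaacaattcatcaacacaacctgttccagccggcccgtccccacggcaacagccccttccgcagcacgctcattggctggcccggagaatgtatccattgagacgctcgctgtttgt
SPRY2: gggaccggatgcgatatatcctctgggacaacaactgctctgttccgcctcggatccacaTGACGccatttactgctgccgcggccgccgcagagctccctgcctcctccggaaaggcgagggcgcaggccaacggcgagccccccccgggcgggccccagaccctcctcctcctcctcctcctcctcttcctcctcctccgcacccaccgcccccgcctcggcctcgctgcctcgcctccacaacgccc

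RefSeq windows were at hand for 6 of the 10 genes: DUSP1, DUSP6, SPRY2, SPRY4, SPRED1 and SPRED2, some of them with several start sites (9 windows in all). The counts include windows at other start sites than that of the leading transcript. These lie 65821 bases away in SPRED2, 1467 and 1018 in SPRY2 and 774 in SPRY4. The window of DUSP1 held the full cAMP response element TGACGTCA from base −125 to −118, counted back from the start site. Its core TGACG also matched from −172 to −168 and, on the other strand, from −111 to −107, and the TATA box TATAAA lay from −30 to −25. TGACGTCA was in 1 of the 9 windows and in 1.65% of all 35116 windows of this length, and TGACG, which overlaps with it, in 3 of the 9 and in 21.2%. SPRY2 and SPRY4 each held TGACG once. TATAAA was in 2 of the 9 windows and in 10.7% of all. The 2 were that of DUSP1 and the SPRED2 window away from the leading start site. None of the 9 windows matched the octamers TGAATGAA or TGAATGGA of CIC (2.19% of all windows), the AP-1 site TGANTCA (6.57%), the ETS site CCGGAAGT (3.42%), the E2F sites TTTCGCGC or TTTGGCGC (0.968%) or the CArG box of serum response factor (1.16%), all searched on both strands. The GC box GGGCGG was in 4 of the 9 windows and in 42.6% of all. A match is a run of letters, and no match in 250 bases says nothing about sites elsewhere. GC content was 74.4% in the DUSP1, 57.2% in the DUSP6 and 70.4% in the SPRY2 window, against a median of 58.0% over all windows.

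SPRY2 and SPRY4, whose products restrain signalling from receptors to RAF, had lower levels than DUSP1, DUSP5 and DUSP6 in every library. SPRY2 (chromosome 13, 80335976 to 80341126, minus strand) had FPKM of 2.81 and 2.99 with DMSO and 2.43 and 2.53 with etoposide. Both etoposide libraries were lower, by 14.6% in the means, and the replicates of each group lay within 0.08 of each other on the log2 scale (log2 fold change −0.22, standard error 0.11, 95% interval −0.50 to 0.06, limma adjusted p = 0.470). The 2 transcripts of SPRY2, which start 1467 bases apart, took varying shares. ENST00000377104 held 64.0% and 71.7% of the FPKM with DMSO and 78.7% and 52.9% with etoposide, so that the etoposide libraries lay on both sides of the DMSO libraries. SPRY4 (chromosome 5, 142310427 to 142326455, minus strand) had FPKM of 0.420 and 0.614 with DMSO and of 0.463 and 0.483 with etoposide. Both etoposide libraries lay between the DMSO libraries, and the log2 fold change of −0.09 turned to 0.14 without DMSO replicate 2. It was −0.32 without DMSO replicate 1.

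The SPRED genes, whose products recruit neurofibromin to RAS at the membrane, had higher means after etoposide. Without DMSO replicate 1 the difference was smaller in SPRED2 and changed sign in SPRED1. SPRED2 (chromosome 2, 65310851 to 65432637, minus strand) had FPKM of 6.58 and 8.03 with DMSO and 8.68 and 8.45 with etoposide. Both etoposide libraries were the higher ones (log2 fold change 0.23, standard error 0.12, 95% interval −0.06 to 0.53, limma adjusted p = 0.465). The corrected value was 0.18. Without DMSO replicate 1, the lowest library, the log2 fold change was 0.09. Without DMSO replicate 2 it was 0.38 and passed the test (limma adjusted p = 0.0489), in a fit in which 1934 of the 22185 genes passed. SPRED1 (chromosome 15, 38252836 to 38357249, plus strand) had FPKM of 4.75 and 6.51 with DMSO and of 6.32 and 6.26 with etoposide. The etoposide libraries were close to each other and to DMSO replicate 2. Its log2 fold change of 0.18 (standard error 0.16, limma adjusted p = 0.655) was −0.05 without DMSO replicate 1, 0.40 without DMSO replicate 2, and −0.08 when corrected. SPRED1 has the longest transcripts of the 10, with 6777 bases weighted by FPKM, and the lowest GC content, at 37.4%. Within a library, the ratio of SPRY2 to SPRED2 does not depend on the scaling of the library. It was 0.428 and 0.372 with DMSO and 0.280 and 0.299 with etoposide, without overlap of the groups. This follows from SPRY2 being lower and SPRED2 higher in both etoposide libraries, and is not a separate result.

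**Figure D2:**
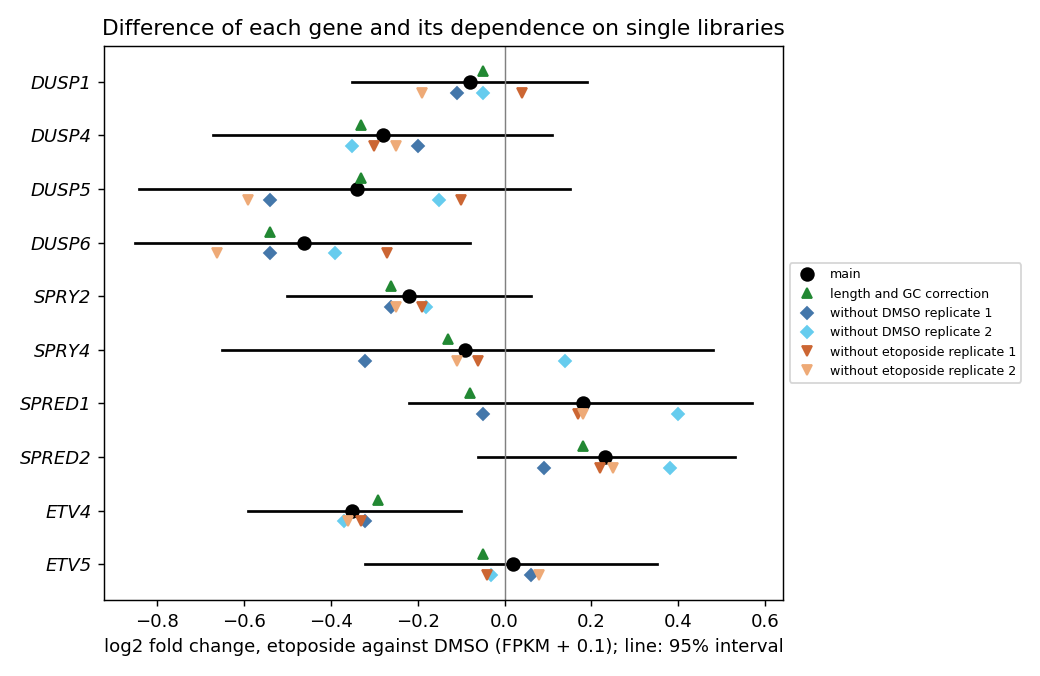
Difference of etoposide from DMSO as log2 fold change (horizontal axis) for the 10 genes, with the 95% interval of limma's fit (line), the corrected value (triangles up) and the values without each library (diamonds and triangles down). The values of ETV4 stay between −0.37 and −0.32 without any library, while those of SPRED1 run from −0.05 to 0.40 and those of DUSP5 from −0.59 to −0.10.

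Of the PEA3 factors, ETV4 was lower after etoposide in both libraries and ETV5 was not. ETV4 (chromosome 17, 43527844 to 43579620, minus strand) had FPKM of 5.49 and 5.29 with DMSO and 4.16 and 4.27 with etoposide. The replicates were within 0.05 of each other on the log2 scale, and both etoposide libraries were lower. Means were 5.39 ± 0.141 and 4.22 ± 0.0750 (SD, n = 2 libraries each), 21.7% lower after etoposide, which did not pass over all genes (log2 fold change −0.35, standard error 0.099, 95% interval −0.59 to −0.10, limma unadjusted p = 0.0134, adjusted p = 0.342). The corrected value was −0.29. ETV5 (chromosome 3, 186046314 to 186110318, minus strand) had FPKM of 1.58 and 1.48 with DMSO and of 1.62 and 1.48 with etoposide. The groups overlapped, with a log2 fold change of 0.02 (−0.05 with equal library medians) and a 95% interval from −0.32 to 0.35. The ratio of ETV4 to ETV5 within a library was 3.48 and 3.58 with DMSO and 2.58 and 2.88 with etoposide, without overlap. Whether the log2 fold changes of ETV4 and ETV5 differ was not tested.

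The transcripts of ETV4 differed between the groups in their make-up, without a test of the shares. ENST00000319349, the leading transcript, had FPKM of 4.20 and 3.50 with DMSO and 2.35 and 1.69 with etoposide. Its share of the gene was 76.5% and 66.1% with DMSO and 56.3% and 39.6% with etoposide. ENST00000393664, whose annotated start lies 669 bases further downstream, was higher in both etoposide libraries, with 0.184 and 0.515 with DMSO and 0.931 and 1.15 with etoposide. Its share was 3.35% and 9.73% with DMSO and 22.4% and 26.9% with etoposide. ENST00000591713 was highest in etoposide replicate 2, at 0.857, against 0.226 and 0.391 with DMSO and 0.298 in etoposide replicate 1. ENST00000545954 was lower in both etoposide libraries, with 0.367 and 0.394 with DMSO and 0.15 and 0.191 with etoposide. The 10 transcripts other than the leading one summed to 1.29 and 1.79 with DMSO and to 1.82 and 2.58 with etoposide. In a fit over the leading transcript of every gene, ETV4 had a log2 fold change of −0.91 (limma adjusted p = 0.644). These transcripts overlap, and their FPKM are StringTie's division of shared reads, so that the shares are less certain than the sum. DHX8, on the opposite strand with an FPKM of 19.4 to 20.4, shares 68 of the 3515 exonic bases of ETV4 (1.93%).

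**Figure D3:**
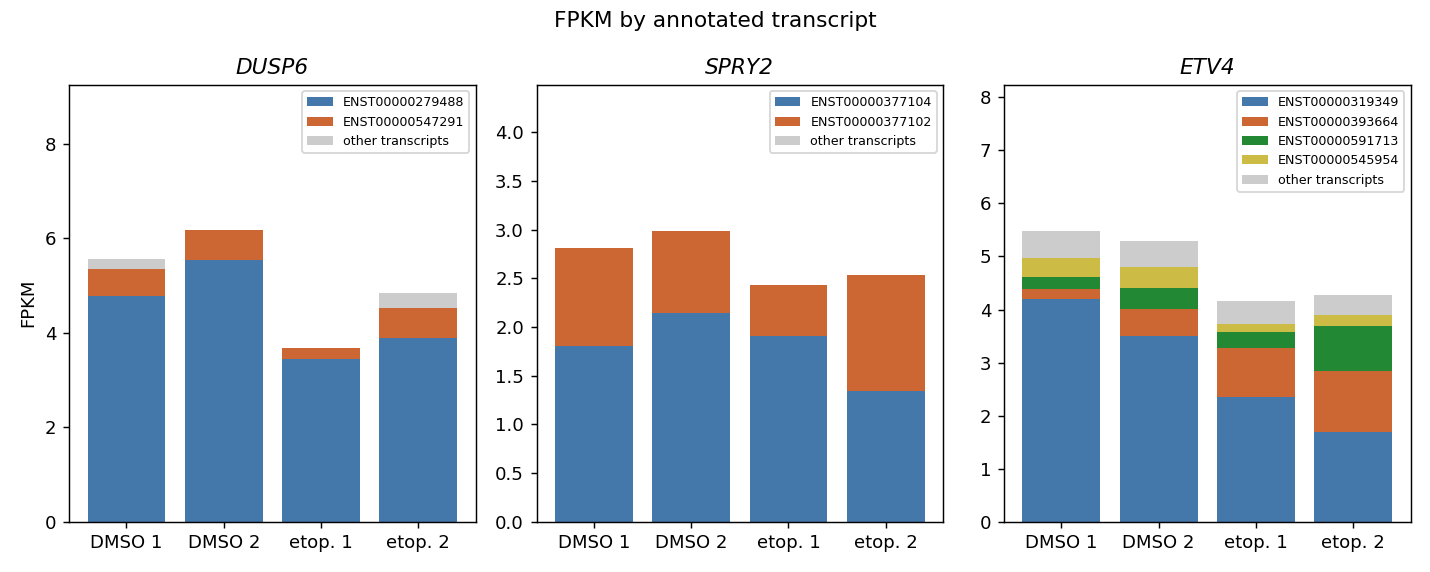
FPKM of the annotated transcripts (stacked, vertical axis) of DUSP6, SPRY2 and ETV4 in each library, for transcripts that hold at least 5% of the gene, with the rest in grey. In ETV4 the leading transcript is at 4.20 and 3.50 with DMSO and at 2.35 and 1.69 with etoposide. ENST00000393664 is higher with etoposide than with DMSO, but stays below the leading transcript. In SPRY2 the split differs between the etoposide libraries.

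The remaining genes were simple in their transcripts: DUSP1 has 1 annotated transcript, and the leading transcript held 97.8% of DUSP5, 97.2% of DUSP4, 93.6% of SPRED2, 91.9% of SPRED1 and 87.6% of ETV5. SPRY4 was spread over more, with 63.1% in ENST00000434127.

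Other genes of the pathway were read from lists, as counts and medians beside the median of 0.036 over all tested genes. For corrected values, the median over all tested genes was −0.004, and without DMSO replicate 1 it was 0.033. The median of the 10 genes was −0.154, with 7 lower and 3 higher (1 higher, SPRED2, when corrected). Corrected, it was −0.194, and it was −0.232 without DMSO replicate 1. No gene of any list passed at an adjusted p under 0.05.

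The other MAP kinase phosphatases differed in sign from DUSP4, DUSP5 and DUSP6, without a test of that difference. All 6 (DUSP2, DUSP7, DUSP8, DUSP9, DUSP10 and DUSP16) had log2 fold changes above 0, of which DUSP10 and DUSP16 turned below 0 with equal library medians and when corrected. Of all tested genes, 12458 of 22185 were above 0. Both etoposide libraries lay above both DMSO libraries for 2 of the 6 (33.3%), near the 28.9% of all genes. The median of the 6 was 0.123, or 0.061 without DMSO replicate 1, and 0 of them passed at an unadjusted p under 0.05, beside 7.06% of all genes that were higher and 4.85% that were lower. DUSP9, which acts on ERK in the cytoplasm, had FPKM of 1.30 and 1.13 with DMSO and of 1.61 and 1.49 with etoposide (log2 fold change 0.33, standard error 0.15, limma adjusted p = 0.436). DUSP8, which acts on JNK and p38, had 0.401 and 0.365 against 0.478 and 0.484, and DUSP7 had 1.99 and 1.88 against 2.23 and 1.96, with overlap. Among the 4 other genes of the Sprouty, SPRED and PEA3 families, SPRY1 and SPRED3 (50%) were lower in both etoposide libraries, beside 19.0% of all genes. SPRY1 had FPKM of 9.30 and 9.68 with DMSO and of 7.58 and 7.98 with etoposide (log2 fold change −0.28, standard error 0.091, limma adjusted p = 0.373), and was the most abundant Sprouty gene in these cells. SPRED3 had 1.72 and 1.63 against 1.36 and 1.28, and SPRY3 had 0.402 and 0.573 against 0.498 and 0.823, with overlap and log2 fold changes of 0.35 as measured, 0.15 corrected and 0.14 without DMSO replicate 1.

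Genes that restrain the pathway by other means were mixed. Of 12, 8 were higher and 4 lower, but 4 higher when corrected (median 0.092, corrected −0.026). LRIG1, which marks receptors for removal, had 4.88 and 5.41 with DMSO and 4.08 and 4.16 with etoposide (log2 fold change −0.31, limma adjusted p = 0.389). RASA2, a RAS inactivator, had 3.57 and 4.46 against 4.87 and 5.23, with log2 fold changes of 0.33 as measured, 0.09 corrected and 0.17 without DMSO replicate 1. ERRFI1, an inhibitor of the EGF receptor, had 17.9 and 20.7 against 21.6 and 22.9, with log2 fold changes of 0.21 as measured, 0.11 corrected and 0.10 without DMSO replicate 1. Of the 5 genes of the CIC repressor and of ETV degradation, 2 (40%) were lower in both etoposide libraries, beside 19.0% of all genes. CIC, which represses ETV4, ETV5, DUSP6 and SPRY4, had FPKM of 9.05 and 9.02 with DMSO and of 6.82 and 7.42 with etoposide (log2 fold change −0.34, standard error 0.095, limma unadjusted p = 0.0120, adjusted p = 0.342). Its partner ATXN1 had 1.80 and 1.99 against 1.77 and 1.59, and DET1, part of a ligase for ETV proteins, had 1.40 and 2.18 against 2.11 and 1.88. The log2 fold change of ATXN1 was −0.16, or −0.34 corrected, and that of DET1 was 0.17, or −0.13 without DMSO replicate 1.

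Of 20 core genes from adaptors to ERK and its kinases, 13 were higher and 7 lower (median 0.126). BRAF had 3.10 and 3.44 with DMSO and 4.67 and 4.42 with etoposide (log2 fold change 0.46, limma adjusted p = 0.311). The scaffold GAB1 had 1.07 and 1.40 against 1.76 and 1.90 (0.55, limma adjusted p = 0.367), and the phosphatase PTPN11, which helps to activate RAS, had 27.0 and 37.6 against 41.9 and 44.3 (0.43, limma adjusted p = 0.393). Corrected, the core list had a median of 0.007, with 0.23 for BRAF, 0.31 for GAB1 and 0.24 for PTPN11. Without DMSO replicate 1 the median was 0.029, with 0.39 for BRAF, 0.37 for GAB1 and 0.20 for PTPN11. Their transcripts span 6000 to 7500 bases with a GC content of 39.6% to 42.1%. Of the 13 genes of JNK, p38 and ERK5, 8 were higher and 5 lower, but 3 higher when corrected (median 0.066, corrected −0.065). MAP2K3, which activates p38, had 27.7 and 26.1 with DMSO and 22.5 and 22.4 with etoposide (log2 fold change −0.26, limma adjusted p = 0.358), MAPK7, which encodes ERK5, had 7.80 and 7.39 against 8.28 and 8.83, and MAPK11, a p38 gene, had 1.00 and 0.944 against 0.712 and 0.919.

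Other targets of ERK were split. Of 14 listed, 13 were tested, 7 higher and 6 lower (9 higher in TPM and 5 with equal library medians), with a median of 0.028 and a range from −0.58 to 0.53. EREG, a growth factor, was under the filter. MYC, a regulator of growth, had FPKM of 11.8 and 11.8 with DMSO and of 8.18 and 9.45 with etoposide (log2 fold change −0.42, standard error 0.10, limma adjusted p = 0.313). FOS, a subunit of AP-1, had 108 and 108 against 72.9 and 90.9 (−0.41, limma adjusted p = 0.342). HBEGF, a ligand of the EGF receptor, had 1.38 and 1.24 against 2.06 and 1.80 (0.53, limma adjusted p = 0.342). The lowest value, −0.58, belonged to EGR1, an immediate early factor, which was named after its values were seen. EGR1 had FPKM of 113.1 and 158.6 with DMSO and of 75.62 and 106.1 with etoposide, without overlap (limma adjusted p = 0.394). As in DUSP5, DUSP6 and SPRY2, etoposide replicate 1 was its lowest library and DMSO replicate 2 its highest. SPRY1 and LRIG1 had the same order at both ends, and how common it is over all genes was not counted.

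**Figure D4:**
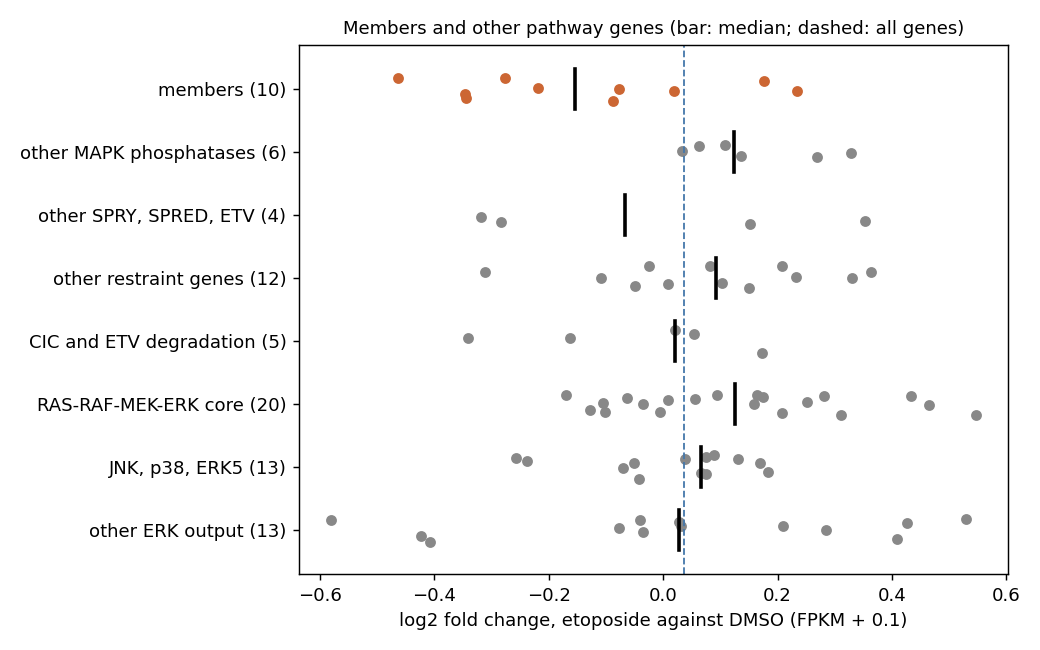
Difference of etoposide from DMSO as log2 fold change (horizontal axis) of each tested gene of the 10 members and of 7 lists of the pathway (points, with the number tested beside the name). Bars are medians and the dashed line is the median of all tested genes, 0.036. The members have a median of −0.154 and lie mostly to the left of the dashed line, the 6 other MAP kinase phosphatases have a median of 0.123, and ERK output genes spread from −0.58 to 0.53.

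Profiles across the 4 libraries were compared by the Euclidean distance between log2 values centred on each gene's mean, among 11432 other protein-coding genes whose FPKM averaged 1 or more. The nearest to DUSP6 were TPGS1 (distance 0.0563), the histone gene H2BC6 (0.0566) and SERPINA5 (0.0938). The nearest to ETV4 were ZNF696 (0.0187), NPR1 (0.0226) and GPR157 (0.0227), with log2 fold changes of −0.35, −0.35 and −0.36. The nearest to DUSP1 were CPPED1 (0.0185), PAX6 (0.0220) and CDPF1 (0.0277). These genes were picked by the same 4 values that give the log2 fold change, so that similar fold changes follow from the choice. Whether they share regulation with the member was not tested.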

How the data were processed

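RNA sequencing values of 4 libraries of OVCAR3 cells were used. The authors made stranded mRNA libraries, read pairs of 100 bases, used HISAT2 and SAMtools for alignment to GRCh38, and quantified with StringTie 2.1.7 against Ensembl release 104, without a strand option. The deposited files hold a coverage, an FPKM and a TPM value for each of 236853 transcripts, and no counts, so that limma on a log scale was used.

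FPKM was summed over transcripts by gene, and 22185 genes with a mean of at least 0.1 were fitted with limma 3.58.1 (R 4.3.3) on log2(FPKM + 0.1), with trend and robust moderation. The fit was tested on simulated data. Read pairs were estimated as coverage times length over 200. Length and GC content came from the files' exons and the hg38 genome (start and end matched GENCODE 44 for 97.2% of shared transcripts), and the correction was a loess of span 0.3. Promoter windows were read from RefSeq with Python 3.11.15.

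The genes and lists were chosen with earlier results of these data known. Named were all 10 genes, of each list up to 3 genes with the smallest p, and the 3 nearest profiles of DUSP6, ETV4 and DUSP1. Alternatives were other pseudocounts, filters and scalings, TPM, estimated fragments with voom (scaled by a trimmed mean of M values), no trend, the correction, the replicate number as a block, the leading transcript alone, and leaving out each library.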

Additional observations from a re-analysis of the deposited data

How the results depend on the processing

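Under every alternative run, DUSP4, DUSP5, DUSP6, SPRY2 and ETV4 kept a negative and SPRED2 a positive log2 fold change (DUSP6 from −0.66 to −0.27, ETV4 from −0.91 to −0.28, DUSP5 from −0.59 to −0.10). DUSP4 and SPRY4 were not tested with a minimum mean FPKM of 1. ETV5 had −0.05 with equal library medians, −0.04 with voom and −0.05 corrected for length and GC content. Corrected, SPRED1 had −0.08. Without single libraries, ETV5 ran from −0.04 to 0.08, SPRED1 from −0.05 to 0.40, SPRY4 from −0.32 to 0.14 and DUSP1 from −0.19 to 0.04. The median of the 10 genes was −0.244 with voom and −0.292 with the leading transcript alone, and ran from −0.232 to −0.082 without single libraries. In TPM the median of all genes was 0.103, and that of the 10 genes −0.096. Of all genes, 1 passed with voom, 6 when corrected, 2 with the leading transcript alone, and 5 to 1934 without single libraries (5 without DMSO replicate 1 and 1934 without DMSO replicate 2). Of the 10 genes, 0 to 1 passed without single libraries, the 1 being SPRED2 without DMSO replicate 2. Where 1 library of a group is left, these fits take its spread from the other group. The causes of these shifts were not tested.

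With the replicate block, 0 genes passed, as without it. The labels give the groups the same replicate numbers without saying that same-numbered libraries belong together. Their deviations from the group means had a correlation of 0.013 over 22185 genes. With 2 libraries in each group and genes that are not independent, this cannot show whether they shared a culture or batch. SPRY4 and DUSP4 rest on few read pairs, which limits their precision.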
